A study of Homo sapiens with 28 samples.

Results

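The genes NES, VIM, FABP7, MSI1, LIX1, ZNF521, ZBTB16, DACH1, POU3F2 and LRP2 were followed as markers of neural progenitors. They were found by gene name in the deposited expression table and make up 10 of its 58219 genes, and all 10 reached the level set for testing. RNA was sequenced from cells of H9, an established line of human embryonic stem cells, to ask what SOX1 does in early neural differentiation. The cells were wild type (WT) or SOX1-/- (here KO). They were taken as undifferentiated embryonic stem cells (ES, day 0) or on days 4 and 8 of neural differentiation with 3 culture labels (IWP2, CT0.4, CT1.0), which gives 14 groups of 2 libraries. IWP2 is known to block the secretion of WNT proteins, while the sources used here do not say what CT stands for and give its number no unit. WT samples carry the numbers 1 and 2 and KO samples 26 and 48. The labels do not say what these stand for, and they are read here as cell lines. On that reading each genotype rests on 2 lines, and p-values measure the spread between these lines and their libraries alone. The difference between a genotype's 2 numbers was correlated over genes between groups. In WT 0 of 21 pairs of groups had an r over 0.1, and in KO 8 of 21 did. For WT the values thus do not show a lasting difference between lines.

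Neural progenitors are the dividing cells of the neuroepithelium that give rise to neurons and glia. They build their cytoskeleton from the intermediate filament proteins nestin (NES) and vimentin (VIM), carry the fatty acid binding protein FABP7 and the RNA-binding protein MSI1, and switch on transcription factors such as ZNF521, ZBTB16, DACH1 and POU3F2 in turn. LRP2, or megalin, is a large endocytic receptor on their apical surface. None of these genes belongs to progenitors alone: vimentin is also abundant in mesenchymal cells and POU3F2 is also made by neurons.

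Values are TPM, a transcript abundance corrected for transcript length and for the library total, which keeps no read depth. Fold changes are on the log2(TPM + 1) scale, which understates changes of low genes, and are given ± SE with the group named first minus the other. A difference was called at an adjusted p under 0.05, with limma fitted over all 28 libraries and 27912 genes. Where libraries are said not to overlap, this describes the values and adds no test. With 2 against 2 libraries an exact permutation test, which was not run, cannot go below 0.333. The share of all genes without overlap was not counted. SOX1 reached 72.1 to 98.0 TPM in WT CT1.0 libraries and at most 3.08 TPM in any KO library. The 4 libraries of WT cells on day 4 under CT0.4 or CT1.0 differed from the rest, with 17694 to 18233 genes at a TPM of 1 or more against 18876 to 20338 elsewhere, and their part in the day 4 results was not tested. On day 4 in CT1.0 the median KO minus WT difference of all genes was 0.19, and median-ratio scaling of the libraries moved the calls over all genes from 3453 higher and 694 lower to 1821 and 2443. The same scaling moved WT CT1.0 against IWP2 on day 4 from 788 higher and 4808 lower to 1750 and 1563. No called difference of the 10 markers changed sign under it. In the fits that leave out a line, each group of that genotype keeps 1 library. The spread then comes from the other genotype alone, so a lost call need not be owed to the line left out.

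Promoter sequences are shown for the markers with the largest KO differences on day 8, since NES and DACH1 moved in opposite directions there. RefSeq (GRCh38.p14) sequences were found for 6 of the 10 genes, NES, VIM, FABP7, DACH1, POU3F2 and LRP2, and the 250 bases before each start were searched on both strands for 5 short motifs. The printed windows lie at chr1:156677408-156677657 (NES) and chr13:71867205-71867454 (DACH1), both on the minus strand and written 5′ to 3′.
NES: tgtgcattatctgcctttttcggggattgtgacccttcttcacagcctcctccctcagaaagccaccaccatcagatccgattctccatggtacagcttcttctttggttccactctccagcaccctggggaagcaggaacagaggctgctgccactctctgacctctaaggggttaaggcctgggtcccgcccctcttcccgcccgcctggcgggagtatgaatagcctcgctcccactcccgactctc
DACH1: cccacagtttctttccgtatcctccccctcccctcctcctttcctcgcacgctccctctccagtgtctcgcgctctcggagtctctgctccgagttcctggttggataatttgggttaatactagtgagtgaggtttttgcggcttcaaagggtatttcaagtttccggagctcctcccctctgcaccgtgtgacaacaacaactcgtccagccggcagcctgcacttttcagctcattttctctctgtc
Neither window holds the SOX letters ACAAAG or ACAATG, the octamer ATGCAAAT, TGGGAA (bound by RBPJ), CCAAT or TATAAA. SOX letters were found in 1 of the 6 windows, that of FABP7, where 21.2% of 35116 promoters of the same length hold them. The FABP7 match is shown with its neighbours (chr6:122779542-122779571, plus strand), with the SOX letters and the CCAAT letters on either strand in capitals.
FABP7: cctgagCCAATcACAAAGaggATTGGagcc
CCAAT was also found in POU3F2, making 2 of 6 windows against 32.0% of all promoters. The octamer, TGGGAA and TATAAA are in none of the 6, and in 1.63%, 20.8% and 10.7% of all. A match of letters is a description, and no binding was measured here.

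In GENCODE 29 (GRCh38) NES spans chr1:156668763-156677397 with 4 exons on the minus strand, and VIM spans chr10:17228259-17237593 with 9 exons on the plus strand. POU3F2 is a single exon at chr6:98834592-98839470. DACH1 spans chr13:71437966-71867192 and LRP2 chr2:169127109-169362685, the latter with 80 exons once overlapping ones are merged. FABP7 spans chr6:122779475-122784074, so its printed bases, which lie before the RefSeq start, fall inside the GENCODE gene. The LRP2 window searched (chr2:169362535-169362784) also overlaps its GENCODE span in part. An antisense RNA, VIM-AS1, overlaps VIM and reached at most 3.69 TPM, and LIX1-AS1 overlaps LIX1 and reached 0.997 TPM. Strand use is not stated, so reads of such partners cannot be told apart from those of the markers.

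**Figure D1:**
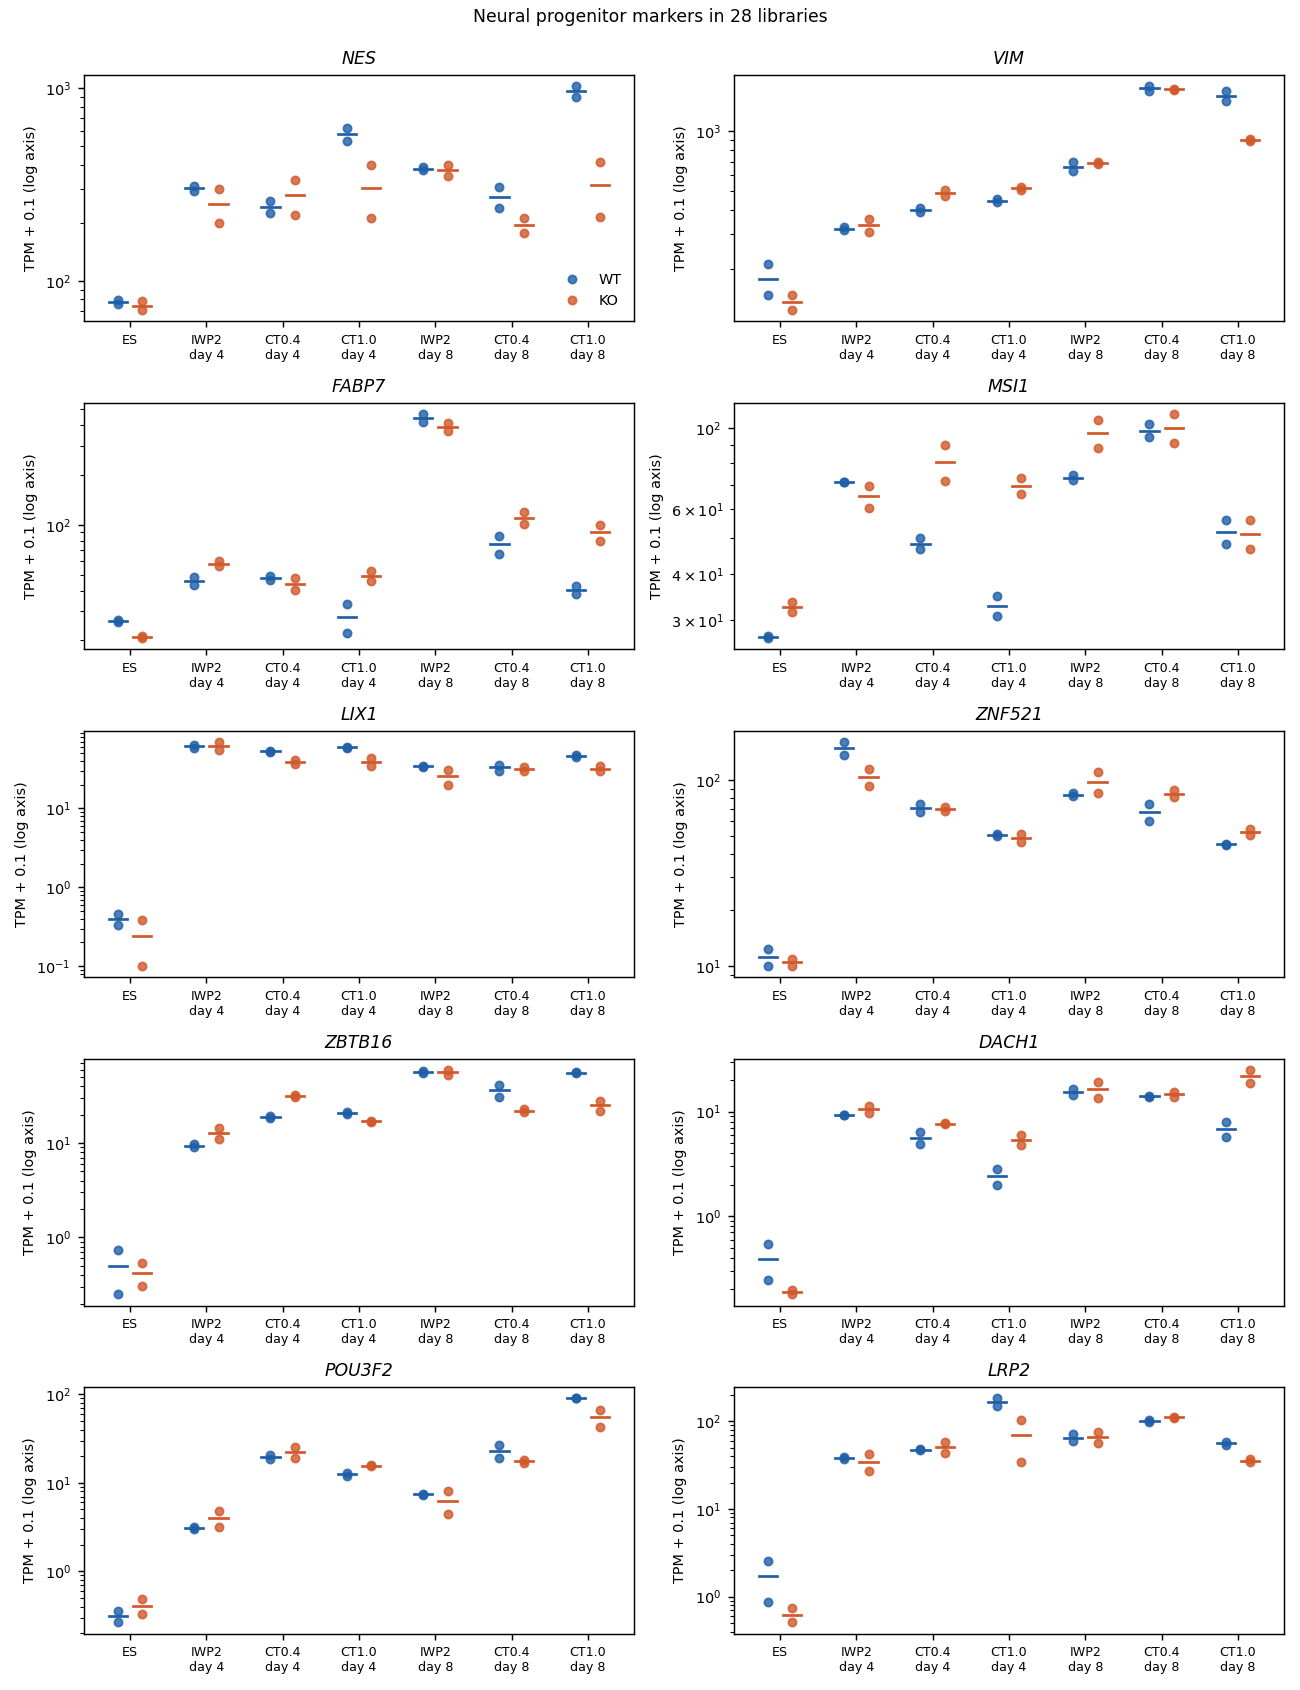
Level of each marker in every library, as TPM + 0.1 on a log axis that differs between panels, against group. Points are libraries (blue WT, orange KO) and bars are means of 2; all 10 markers are lowest in ES cells by mean, and the genotypes part most in CT1.0.

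Undifferentiated cells held filament transcripts but little of most other markers. In ES cells VIM stood at 211 and 147 TPM in WT lines 1 and 2 and at 124 and 147 TPM in KO lines 26 and 48. NES stood at 75.3 and 79.8 TPM in WT and 70.4 and 78.1 TPM in KO, and MSI1, FABP7 and ZNF521 lay between 9.92 and 33.6 TPM in the same libraries. LIX1, ZBTB16, DACH1 and POU3F2 stayed at or under 0.636 TPM in all ES libraries, and LRP2 at or under 2.45 TPM. KO and WT ES cells differed by an adjusted p under 0.05 in 0 of 10 markers, against 0.219% of all genes. An unadjusted p under 0.05 was found for 1 marker and for 3007 of 27912 genes.

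By day 4 nearly the whole set had risen. In WT 10 of 10 rose under IWP2 (20.3% of all genes were called higher there), 10 of 10 under CT0.4 (12.2%) and 8 of 10 under CT1.0 (10.2%). In KO all 10 rose under each label, against 19.4% of all genes in IWP2, 19.4% in CT0.4 and 20.0% in CT1.0. Median changes were 2.42, 2.45 and 2.49 in WT IWP2, CT0.4 and CT1.0 and 2.53, 2.80 and 2.31 in KO, where the medians over all genes lay between -0.05 and 0.09. In bulk RNA fewer cells of a type and less RNA per cell cannot be told apart, here and below.

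LIX1, a gene active in early neuroectoderm, and LRP2 had the steepest rises. LIX1 went from 0.359 and 0.235 TPM in WT ES cells to 63.4 and 58.5 TPM (IWP2), 52.4 and 53.8 TPM (CT0.4) and 58.1 and 60.0 TPM (CT1.0) on day 4. All 6 day 4 libraries lay far above both ES libraries, with a change of 5.58 ± 0.17 in IWP2 (adjusted p = 3.77e-13). LRP2 went from 2.45 and 0.767 TPM to 39.5 and 36.9 TPM (IWP2), 47.2 and 47.8 TPM (CT0.4) and 150 and 183 TPM (CT1.0), a rise of 3.99 ± 0.37 in IWP2 and of 6.08 ± 0.37 in CT1.0. The transcription factor genes rose as well, ZBTB16, DACH1 and POU3F2 from at most 0.636 TPM and ZNF521 from 12.3 and 9.92 TPM in WT. ZBTB16, a BTB zinc finger repressor, gained 2.91 ± 0.17 in IWP2, 3.85 ± 0.17 in CT0.4 and 3.97 ± 0.17 in CT1.0, and POU3F2, a POU factor, gained 1.72 ± 0.24, 4.07 ± 0.24 and 3.46 ± 0.24. DACH1, a nuclear cofactor of the retinal determination network, and ZNF521, a zinc finger protein that promotes neural fate in stem cells, rose most in IWP2, by 2.98 ± 0.21 and 3.63 ± 0.14, and least in CT1.0, by 1.36 ± 0.21 and 2.10 ± 0.14.

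NES, VIM, FABP7 and MSI1 were already present in ES cells. NES gained 1.94 ± 0.29 in WT IWP2, 1.62 ± 0.29 in CT0.4 and 2.87 ± 0.29 in CT1.0; the CT0.4 call ended without WT line 1 (log2 1.69, adjusted p = 0.0688) and without WT line 2 (log2 1.55, adjusted p = 0.0868). VIM gained 0.86 ± 0.12, 1.18 ± 0.12 and 1.33 ± 0.12. FABP7 and MSI1 did not pass the test in WT CT1.0 on day 4. FABP7 there was 32.9 and 21.9 TPM against 26.5 and 25.7 TPM in ES cells (log2 0.04 ± 0.16, adjusted p = 0.953), and MSI1 was 30.7 and 34.8 TPM against 27.0 and 26.7 TPM (log2 0.27 ± 0.13, adjusted p = 0.121). In KO CT1.0 the same 2 genes rose, FABP7 to 52.1 and 45.8 TPM (log2 1.20 ± 0.16) and MSI1 to 73.1 and 66.0 TPM (log2 1.07 ± 0.13). MSI1 in WT CT1.0 was called with median-ratio scaling (log2 0.41, adjusted p = 0.0227) and without KO line 26 (adjusted p = 0.0357) or KO line 48 (adjusted p = 0.0354).

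From day 4 to day 8 the markers separated. In WT 5 of 10 rose (8.97% of all genes did) and 2 fell (4.85%) under IWP2, 6 rose (19.7%) and 1 fell (5.08%) under CT0.4, and 6 rose (12.2%) and 1 fell (2.45%) under CT1.0. In KO 4 rose (6.87%) and 1 fell (2.85%) under IWP2, 4 rose (14.4%) and 0 fell (7.07%) under CT0.4, and 4 rose (4.16%) and 1 fell (6.87%) under CT1.0. VIM and FABP7 rose in all 6 of these comparisons. Medians of the 10 were 0.71, 0.78 and 0.69 in WT IWP2, CT0.4 and CT1.0, where the medians of all genes were 0.03, 0.18 and 0.17, and 0.59, 0.29 and 0.32 in KO, where those of all genes were 0.04, 0.04 and -0.06.

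FABP7 had the largest late rise, and it was under IWP2. WT IWP2 went from 43.2 and 48.1 TPM on day 4 to 419 and 470 TPM on day 8 (log2 3.25 ± 0.16, adjusted p = 1.59e-09), and KO IWP2 from 59.9 and 56.5 TPM to 412 and 371 TPM (log2 2.73 ± 0.16, adjusted p = 1.56e-08). Day 8 libraries of IWP2 were the 4 highest of all for this gene. Under CT1.0 the WT libraries reached only 37.9 and 42.5 TPM (log2 0.56 ± 0.16), a call that ended without WT line 2 (log2 0.20, adjusted p = 0.649), without KO line 26 (adjusted p = 0.0722), without KO line 48 (adjusted p = 0.0721) and with median-ratio scaling (log2 0.29, adjusted p = 0.367). Under CT0.4 the WT rise of 0.66 ± 0.16 ended without WT line 1 (log2 0.53, adjusted p = 0.125) and with that scaling (log2 0.36, adjusted p = 0.184).

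VIM rose most under CT0.4, from 408 and 391 TPM to 1700 and 1601 TPM in WT (log2 2.04 ± 0.12, adjusted p = 3.4e-09) and from 503 and 469 TPM to 1619 and 1642 TPM in KO (log2 1.75 ± 0.12). In WT CT1.0 it rose from 437 and 452 TPM to 1599 and 1431 TPM (log2 1.76 ± 0.12). KO CT1.0 libraries reached 893 and 908 TPM (log2 0.81 ± 0.12), a call that ended without KO line 26 (log2 0.84, adjusted p = 0.0578) and without KO line 48 (log2 0.77, adjusted p = 0.0658). NES in WT CT1.0 went from 529 and 622 TPM to 1025 and 893 TPM without passing the test (log2 0.74 ± 0.29, adjusted p = 0.108). The 2 groups of libraries do not overlap, and the difference was called without KO line 26 (adjusted p = 0.00856), without KO line 48 (adjusted p = 0.00854) and with a replicate block (adjusted p = 0.01). In KO CT1.0 NES had day 4 values of 211 and 396 TPM and day 8 values of 214 and 410 TPM (log2 0.04 ± 0.29).

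POU3F2 rose from 12.7 and 12 TPM to 90.0 and 90.4 TPM in WT CT1.0 (log2 2.77 ± 0.24, adjusted p = 1.02e-06) and from 15.7 and 15.5 TPM to 43.0 and 66.6 TPM in KO CT1.0 (log2 1.71 ± 0.24, adjusted p = 0.000177). ZBTB16 rose most under IWP2, from 8.99 and 9.58 TPM to 57.4 and 54.8 TPM in WT (log2 2.47 ± 0.17) and from 14.5 and 10.9 TPM to 52.4 and 59.1 TPM in KO (log2 2.06 ± 0.17). It also rose in WT CT0.4 (log2 0.90 ± 0.17) and WT CT1.0 (log2 1.40 ± 0.17); the former call ended without WT line 2 (log2 0.64, adjusted p = 0.117). DACH1 rose in WT under all 3 labels, by 0.67 ± 0.21 in IWP2, 1.19 ± 0.21 in CT0.4 and 1.21 ± 0.21 in CT1.0, and in KO CT0.4 (log2 0.86 ± 0.21) and KO CT1.0 (log2 1.85 ± 0.21, adjusted p = 2.51e-05). Without WT line 1 its WT values were 0.76 (adjusted p = 0.211), 1.0 (adjusted p = 0.0659) and 1.20 (adjusted p = 0.0833). Without WT line 2 the IWP2 and CT1.0 values were 0.59 (adjusted p = 0.348) and 1.23 (adjusted p = 0.0541). The IWP2 call also ended without KO line 26 (adjusted p = 0.0655) or KO line 48 (adjusted p = 0.0646), and the KO CT0.4 call without KO line 26 (log2 0.78, adjusted p = 0.131) or KO line 48 (log2 0.95, adjusted p = 0.0652).

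A smaller number of markers fell after day 4. LIX1 fell in WT IWP2, from 63.4 and 58.5 TPM to 34.7 and 33.0 TPM (log2 -0.83 ± 0.17), in KO IWP2, from 55.4 and 69.3 TPM to 19.9 and 30.7 TPM (log2 -1.29 ± 0.17), and in WT CT0.4 (log2 -0.68 ± 0.17). ZNF521 fell in WT IWP2 from 160 and 136 TPM to 82.3 and 84.7 TPM (log2 -0.82 ± 0.14). LRP2 fell in WT CT1.0 from 150 and 183 TPM to 58.5 and 53.4 TPM (log2 -1.55 ± 0.37), while under CT0.4 it rose, from 47.2 and 47.8 TPM to 103 and 98.8 TPM in WT (log2 1.07 ± 0.37) and from 43.2 and 57.7 TPM to 109 and 113 TPM in KO (log2 1.14 ± 0.37). MSI1, which binds RNA and holds back the translation of its targets, rose in WT CT0.4 (log2 1.0 ± 0.13), WT CT1.0 (log2 0.65 ± 0.13) and KO IWP2 (log2 0.56 ± 0.13) and fell in KO CT1.0 (log2 -0.43 ± 0.13). Most of these calls ended when a line was left out. Without WT line 1 the adjusted p was 0.208 for LIX1 in WT IWP2, 0.317 for LIX1 in WT CT0.4, 0.109 for ZNF521, 0.21 and 0.372 for LRP2 in WT CT1.0 and CT0.4, and 0.354 for MSI1 in WT CT1.0. Without WT line 2 it was 0.202 and 0.145 for LIX1, 0.271 and 0.309 for LRP2, and 0.0688 for MSI1 in WT CT1.0. MSI1 in KO CT1.0 lost its call without KO line 26 (adjusted p = 0.0579) or KO line 48 (adjusted p = 0.104), and LRP2 in KO CT0.4 without KO line 26 (log2 0.95, adjusted p = 0.142). Leaving out either WT line also ended the MSI1 calls in KO IWP2 (adjusted p = 0.0706) and KO CT1.0 (adjusted p = 0.135) and the LRP2 call in KO CT0.4 (adjusted p = 0.117). Median-ratio scaling ended both LRP2 calls in CT0.4 (adjusted p = 0.16 in WT and 0.0678 in KO), the MSI1 calls in WT CT1.0 (log2 0.38, adjusted p = 0.0736) and KO CT1.0 (log2 -0.34, adjusted p = 0.115), and that of DACH1 in WT IWP2 (adjusted p = 0.0761). With a pseudocount of 0.1 the LIX1 calls in WT IWP2 (adjusted p = 0.175) and WT CT0.4 (adjusted p = 0.222), both LRP2 calls in CT0.4 (adjusted p = 0.0824 and 0.0746), and those of DACH1 in WT IWP2 (adjusted p = 0.143) and ZBTB16 in WT CT0.4 (adjusted p = 0.0564) ended. No filter ended the calls of DACH1 in WT IWP2, LRP2 in both CT0.4 comparisons and MSI1 in KO CT1.0 (adjusted p from 0.0506 to 0.068). Robust variances ended LRP2 in WT CT0.4 and MSI1 in KO CT1.0 (adjusted p = 0.0525 and 0.0684), and the fit without the 4 WT day 4 CT libraries ended LRP2 in KO CT0.4 (adjusted p = 0.0506).

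**Figure D2:**
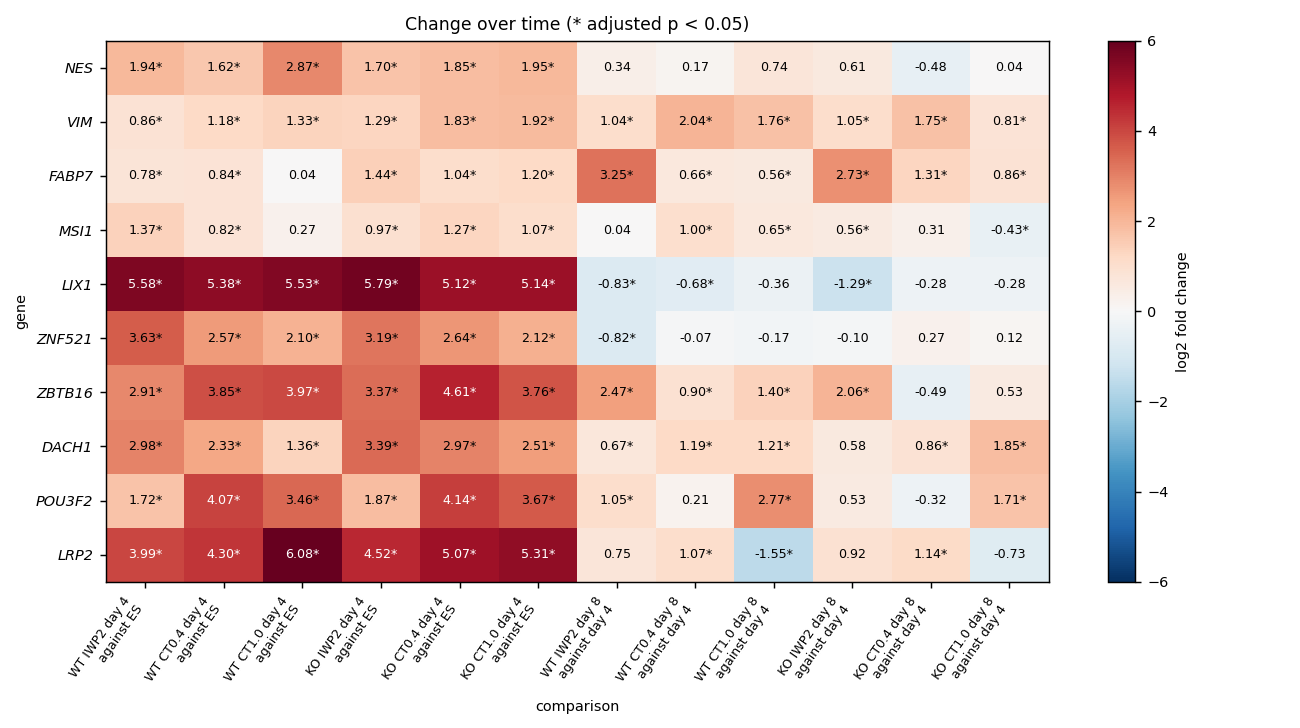
Change of each marker over time (rows) in 12 comparisons (columns), as log2 fold change by colour and number, with an asterisk at an adjusted p under 0.05. The 6 columns against ES are red except FABP7 and MSI1 in WT CT1.0, while the 6 columns of day 8 against day 4 mix rises and falls.

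The labels were then compared within WT, where SOX1 is intact but its own mean level differed by label. On day 4 it ran from 0.949 TPM in IWP2 to 91.0 TPM in CT1.0. On day 4 CT1.0 differed from IWP2 in 9 of 10 markers, 5 higher (2.82% of all genes were) and 4 lower (17.2%). LRP2, POU3F2, ZBTB16, NES and VIM were higher in CT1.0, by 2.09 ± 0.37, 1.74 ± 0.24, 1.07 ± 0.17, 0.93 ± 0.29 and 0.47 ± 0.12. DACH1, ZNF521, MSI1 and FABP7 were lower, by -1.63 ± 0.21, -1.53 ± 0.14, -1.10 ± 0.13 and -0.74 ± 0.16. The median of the 10 was 0.21 where that of all genes was -0.22. CT0.4 differed from IWP2 in 5, with POU3F2 (log2 2.35 ± 0.24) and ZBTB16 higher (2.45% of all genes) and ZNF521, DACH1 and MSI1 lower (10.6%). CT1.0 differed from CT0.4 in 6, with LRP2 (log2 1.78 ± 0.37) and NES (log2 1.25 ± 0.29) higher (2.0% of all genes) and DACH1, FABP7, MSI1 and ZNF521 lower (4.47%).

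ZNF521 and DACH1 were ordered by label on day 4 in WT. ZNF521 stood at 160 and 136 TPM (IWP2), 66.9 and 74.1 TPM (CT0.4) and 51.3 and 50.0 TPM (CT1.0). DACH1 stood at 9.12 and 9.22 TPM, 4.77 and 6.30 TPM, and 2.75 and 1.89 TPM in the same order. Libraries of the 3 labels did not overlap for either gene. Of the 9 calls between CT1.0 and IWP2 those of ZBTB16, MSI1, DACH1 and ZNF521 stayed past the threshold when any line was left out. The other 5 did not: without WT line 1 the values were 1.0 for NES (adjusted p = 0.36), 2.28 for LRP2 (adjusted p = 0.0784), 1.72 for POU3F2 (adjusted p = 0.0575) and 0.52 for VIM (adjusted p = 0.0612), and without WT line 2 they were 0.86 for NES (adjusted p = 0.398), 1.90 for LRP2 (adjusted p = 0.107), -0.38 for FABP7 (adjusted p = 0.276) and 0.42 for VIM (adjusted p = 0.0934). VIM was also lost without either KO line (adjusted p = 0.0532). Between CT0.4 and IWP2 POU3F2 alone kept its call whichever line was left out; without WT line 1 the adjusted p was 0.123 for ZBTB16, 0.07 for ZNF521, 0.339 for MSI1 and 0.523 for DACH1, and without WT line 2 it was 0.174 for MSI1 and 0.165 for DACH1, which was also lost without KO line 26 (adjusted p = 0.0772) or KO line 48 (adjusted p = 0.0764). Between CT1.0 and CT0.4 all 6 calls ended without WT line 1 or WT line 2, with adjusted p from 0.0532 (FABP7 without line 1) to 0.564 (ZNF521 without line 2), and that of ZNF521 also without KO line 26 (adjusted p = 0.0669) or KO line 48 (adjusted p = 0.067). Median-ratio scaling, which removes the shift of all genes, ended 4 of the 20 day 4 calls: FABP7 in CT1.0 against IWP2 (log2 -0.42, adjusted p = 0.157), MSI1 (log2 -0.31, adjusted p = 0.151) and DACH1 (log2 -0.44, adjusted p = 0.218) in CT0.4 against IWP2, and ZNF521 in CT1.0 against CT0.4 (log2 -0.37, adjusted p = 0.161). A pseudocount of 0.1 ended ZBTB16 (adjusted p = 0.0626) and DACH1 (adjusted p = 0.141) in CT0.4 against IWP2. No filter ended NES in CT1.0 against IWP2 (adjusted p = 0.0563), DACH1 in CT0.4 against IWP2 (adjusted p = 0.0651) and ZNF521 in CT1.0 against CT0.4 (adjusted p = 0.0753), the last also with robust variances (adjusted p = 0.095) and with the replicate block (adjusted p = 0.0505).

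On day 8 POU3F2 and FABP7 set the WT labels apart most. POU3F2 was 7.32 and 7.27 TPM (IWP2), 19.0 and 26.6 TPM (CT0.4) and 90.0 and 90.4 TPM (CT1.0). FABP7 ran the other way, with 419 and 470 TPM, 85.0 and 66.9 TPM, and 37.9 and 42.5 TPM. Neither gene overlapped between any 2 labels. CT1.0 against IWP2 gave 3 of 10 higher (2.97% of all genes) and 4 lower (7.82%), led by POU3F2 (log2 3.46 ± 0.24, adjusted p = 3.54e-08) and FABP7 (log2 -3.43 ± 0.16, adjusted p = 3.1e-10). The others were NES (log2 1.33 ± 0.29), VIM (log2 1.20 ± 0.12), DACH1 (log2 -1.08 ± 0.21), ZNF521 (log2 -0.87 ± 0.14) and MSI1 (log2 -0.49 ± 0.13). Among them NES lost its call without WT line 1 (log2 1.26, adjusted p = 0.326) or line 2 (log2 1.40, adjusted p = 0.244), MSI1 without line 1 (adjusted p = 0.215) or line 2 (adjusted p = 0.496), and DACH1 (log2 -0.78, adjusted p = 0.22) and ZNF521 (adjusted p = 0.0604) without line 2.

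CT1.0 against CT0.4 in WT on day 8 gave 3 of 10 higher (4.2% of all genes) and 4 lower (10.1%). NES was 1025 and 893 TPM against 237 and 307 TPM (log2 1.82 ± 0.29, adjusted p = 0.00028), POU3F2 was higher by 1.95 ± 0.24 and ZBTB16 by 0.62 ± 0.17. DACH1 was 7.83 and 5.61 TPM against 14 and 13.7 TPM (log2 -0.96 ± 0.21), and MSI1, FABP7 and ZNF521 were lower by -0.90 ± 0.13, -0.89 ± 0.16 and -0.56 ± 0.14. Each of the 7 calls ended when 1 WT line was left out, NES with an adjusted p of 0.177 without line 1 and 0.0589 without line 2, POU3F2 with 0.058 and FABP7 with 0.109 without line 1, ZBTB16 with 0.449 and 0.0771, DACH1 with 0.0648 and 0.195, MSI1 with 0.0929 without line 2, and ZNF521 with 0.312 and 0.0783. CT0.4 against IWP2 gave 3 higher (6.29%) and 2 lower (5.89%): VIM by 1.32 ± 0.12 and POU3F2 by 1.5 ± 0.24 among the higher, and FABP7 by -2.54 ± 0.16 among the lower. The VIM and FABP7 calls held whichever line was left out, while POU3F2 (adjusted p = 0.0644 without line 1 and 0.146 without line 2), ZBTB16 (0.491 and 0.0743) and MSI1 (0.365 and 0.424) lost theirs. Other settings that ended WT label calls on day 8 were median-ratio scaling for MSI1 in CT1.0 against IWP2 (log2 -0.34, adjusted p = 0.124) and a pseudocount of 0.1 for ZBTB16 in CT0.4 against IWP2 (adjusted p = 0.28) and CT1.0 against CT0.4 (adjusted p = 0.271). MSI1 in CT0.4 against IWP2 also lost its call with no filter, robust variances or without the 4 WT day 4 CT libraries (adjusted p from 0.0526 to 0.0749).

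KO cultures differed by label as well. On day 8 KO CT1.0 against IWP2 gave 2 of 10 higher (3.78% of all genes) and 4 lower (16.7%), with POU3F2 at 43.0 and 66.6 TPM against 4.30 and 8.04 TPM (log2 2.98 ± 0.24) and FABP7 at 99.8 and 80.2 TPM against 412 and 371 TPM (log2 -2.12 ± 0.16). CT0.4 against IWP2 gave 2 higher (8.61%) and 3 lower (7.89%), and CT1.0 against CT0.4 gave 1 higher (4.54%) and 4 lower (18.5%). LRP2 was 37.3 and 33.8 TPM in KO CT1.0 and 109 and 113 TPM in KO CT0.4 (log2 -1.62 ± 0.37, adjusted p = 0.0034), with no overlap. The fit of the compared libraries alone ended 12 of the 16 KO label calls. Also requiring a log2 fold change of at least 1 in size ended 7. Apart from these settings, 3 of the KO label calls ended under another. VIM in CT1.0 against IWP2 (log2 0.38 ± 0.12, adjusted p = 0.0333) lost its call without KO line 26 (adjusted p = 0.314) or KO line 48 (adjusted p = 0.267), and with no filter, robust variances or without the 4 WT day 4 CT libraries (adjusted p from 0.0506 to 0.0713). ZNF521 in CT1.0 against CT0.4 (log2 -0.67 ± 0.14) lost it without KO line 48 (log2 -0.55, adjusted p = 0.0731) and with median-ratio scaling (log2 -0.40, adjusted p = 0.0622). NES in CT0.4 against IWP2 (log2 -0.94 ± 0.29, adjusted p = 0.0365) lost it without either WT line (adjusted p = 0.166), and with no filter, robust variances or without those 4 libraries (adjusted p from 0.052 to 0.0598). LIX1 passed the test between no 2 labels on either day in WT or on day 8 in KO, and its largest difference there was 0.47 (log2).

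**Figure D3:**
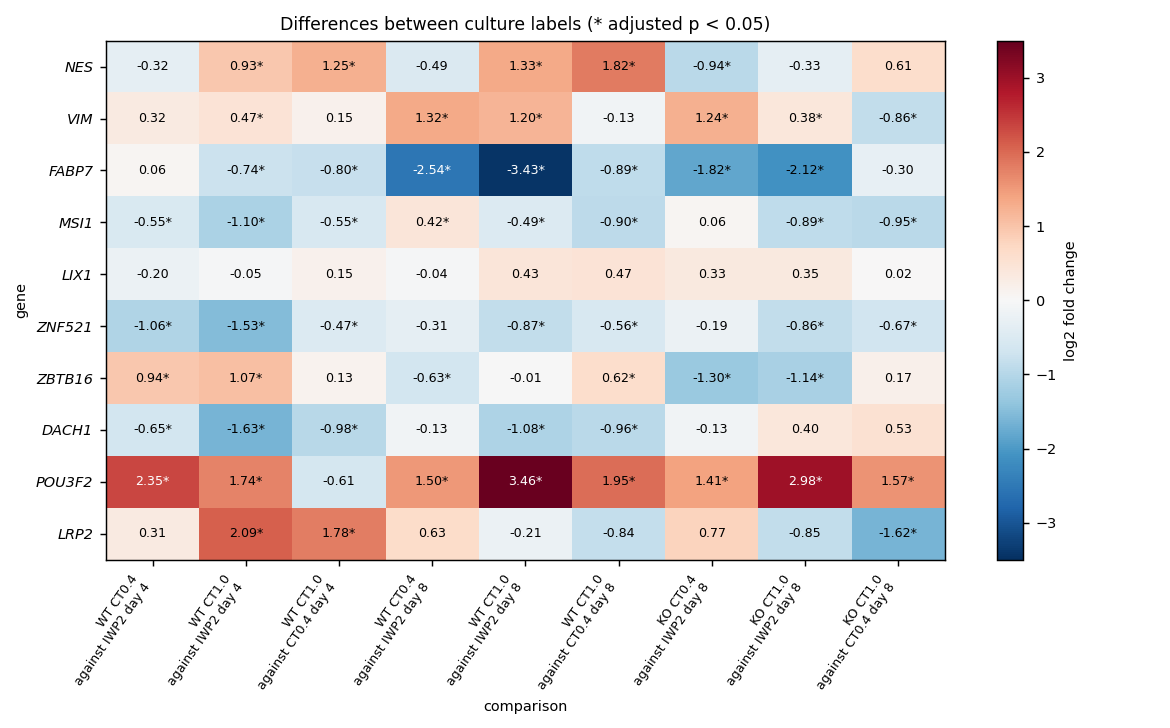
Differences between culture labels within a genotype and day (columns) for each marker (rows), as log2 fold change by colour and number, with an asterisk at an adjusted p under 0.05. FABP7 is lower and POU3F2 higher in CT1.0 than in IWP2 on day 8 in both genotypes.

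KO was next set against WT within each label and day. Under IWP2 SOX1 itself was low in WT, with means of 0.949 TPM on day 4 and 10.3 TPM on day 8. The KO means were 0.775 and 2.37 TPM. Under IWP2 0 of 10 markers passed the test on day 4 (0.043% of all genes called) or on day 8 (0.0609%). On day 4 an unadjusted p under 0.05 was found for 3 markers and for 2317 of 27912 genes. On day 8 it was found for 2 markers and for 1408 genes. The widest IWP2 differences were ZNF521 on day 4, at 115 and 93.0 TPM in KO against 160 and 136 TPM in WT (log2 -0.51 ± 0.14, adjusted p = 0.239), and LIX1 on day 8, at 19.9 and 30.7 TPM against 34.7 and 33.0 TPM (log2 -0.43 ± 0.17, adjusted p = 0.868). LIX1 was called there without KO line 48 (log2 -0.74, adjusted p = 0.0374).

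Under CT0.4 on day 4 MSI1 and ZBTB16 were higher in KO, 2 of 10 markers against 3.67% of all genes higher and 4.24% called in either direction. MSI1 was 89.6 and 71.5 TPM in KO and 46.8 and 49.9 TPM in WT (log2 0.72 ± 0.13, adjusted p = 0.00438). ZBTB16 was 32.1 and 30.3 TPM in KO and 19.4 and 18.1 TPM in WT (log2 0.71 ± 0.17, adjusted p = 0.0305). Libraries of the genotypes do not overlap for either gene, and the median of the 10 was 0.18 where that of all genes was 0.13. MSI1 lost its call without WT line 1 (log2 0.67, adjusted p = 0.224) or line 2 (log2 0.76, adjusted p = 0.093). ZBTB16 lost it without WT line 1 (adjusted p = 0.21), WT line 2 (adjusted p = 0.171), KO line 26 (adjusted p = 0.191) or KO line 48 (adjusted p = 0.102), with median-ratio scaling (log2 0.52, adjusted p = 0.102) and with a pseudocount of 0.1 (adjusted p = 0.256).

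Under CT0.4 on day 8 no marker passed, 0 of 10 against 0.416% of all genes. An unadjusted p under 0.05 was found for 3 markers and for 2591 of 27912 genes. ZBTB16 was 22.8 and 21.1 TPM in KO against 30.8 and 41.5 TPM in WT (log2 -0.68 ± 0.17, adjusted p = 0.12), and FABP7 was 120 and 101 TPM against 85.0 and 66.9 TPM (log2 0.54 ± 0.16, adjusted p = 0.21). VIM was 1619 and 1642 TPM against 1700 and 1601 TPM, within the spread of the WT lines.

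CT1.0 was the label with the most differences between the genotypes. On day 4, 3 markers were higher (12.4% of all genes) and 3 lower (2.49%) in KO, 6 of 10 against 14.9% in either direction. MSI1 was 73.1 and 66.0 TPM in KO and 30.7 and 34.8 TPM in WT (log2 1.06 ± 0.13, adjusted p = 5.47e-05). FABP7 was 52.1 and 45.8 TPM in KO and 32.9 and 21.9 TPM in WT (log2 0.84 ± 0.16, adjusted p = 0.00223). DACH1 was 5.82 and 4.65 TPM in KO and 2.75 and 1.89 TPM in WT (log2 0.91 ± 0.21, adjusted p = 0.00718). For these 3 called markers both KO lines lay above both WT lines, which adds no test to the calls.

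The day 4 markers lower in KO CT1.0 were NES, LRP2 and LIX1. NES was 211 and 396 TPM in KO and 529 and 622 TPM in WT (log2 -0.99 ± 0.29, adjusted p = 0.0304). LRP2 was 33.8 and 104 TPM in KO and 150 and 183 TPM in WT (log2 -1.47 ± 0.37, adjusted p = 0.0126). LIX1 was 34.8 and 43.5 TPM in KO and 58.1 and 60.0 TPM in WT (log2 -0.59 ± 0.17, adjusted p = 0.0288). Both KO lines lay below both WT lines, though line 48 was nearer to WT than line 26 in all 3. The median over the 10 was 0.08, below the 0.19 of all genes.

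Only the MSI1 call on day 4 held when any line was left out. Without KO line 26 the values were -0.54 for NES (adjusted p = 0.0973), -0.67 for LRP2 (adjusted p = 0.259), -0.43 for LIX1 (adjusted p = 0.056), 0.75 for FABP7 (adjusted p = 0.0838) and 0.78 for DACH1 (adjusted p = 0.108). Without WT line 1 the adjusted p was 0.238 for NES, 0.142 for LRP2, 0.254 for LIX1 and 0.0502 for DACH1, and without WT line 2 it was 0.327, 0.191, 0.262 and 0.133, with 0.0892 for FABP7 (log2 0.56). LIX1 was not called with a pseudocount of 0.1 (adjusted p = 0.333), nor NES with no filter (adjusted p = 0.0517). With median-ratio scaling all 6 kept their calls.

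On day 8 in CT1.0, 2 markers were higher (4.34% of all genes) and 4 lower (9.96%) in KO, 6 of 10 against 14.3% in either direction. The median of the 10 was -0.58 and that of all genes was -0.02. NES and VIM, the filament genes, were both lower. NES was 214 and 410 TPM in KO and 1025 and 893 TPM in WT (log2 -1.69 ± 0.29, 3.22-fold lower, adjusted p = 0.00127). VIM was 893 and 908 TPM in KO and 1599 and 1431 TPM in WT (log2 -0.75 ± 0.12, 1.68-fold lower, adjusted p = 0.000804). Neither gene overlapped between the genotypes, and the KO lines differed 1.92-fold in NES but hardly in VIM.

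Of the transcription factors, ZBTB16 and POU3F2 were lower and DACH1 higher. ZBTB16 was 21.7 and 28.1 TPM in KO and 56.3 and 55.1 TPM in WT (log2 -1.14 ± 0.17, adjusted p = 0.000495). POU3F2 was 43.0 and 66.6 TPM in KO and 90.0 and 90.4 TPM in WT (log2 -0.74 ± 0.24, adjusted p = 0.047). DACH1 was 24.8 and 18.5 TPM in KO and 7.83 and 5.61 TPM in WT (log2 1.55 ± 0.21, 2.94-fold higher, adjusted p = 0.000193). The KO CT1.0 mean of DACH1, 21.7 TPM, was the highest of its 14 groups, though it overlapped KO IWP2 on day 8 (19.1 and 13.4 TPM).

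FABP7 was also higher in KO, at 99.8 and 80.2 TPM against 37.9 and 42.5 TPM (log2 1.14 ± 0.16, 2.20-fold, adjusted p = 0.000305). Not called were LIX1, at 29.7 and 34.1 TPM against 44.8 and 47.0 TPM (log2 -0.51 ± 0.17, adjusted p = 0.0557), and LRP2, at 37.3 and 33.8 TPM against 58.5 and 53.4 TPM (log2 -0.64 ± 0.37, adjusted p = 0.294). MSI1 was 55.9 and 46.8 TPM in KO and 55.9 and 48.2 TPM in WT, and ZNF521 was 54.8 and 50.9 TPM and 45.4 and 44.8 TPM. LIX1 was called with a replicate block (adjusted p = 0.00627) and without KO line 48 (log2 -0.61, adjusted p = 0.00801). The DACH1 and ZBTB16 calls held when any line was left out. NES lost its call without WT line 1 (log2 -1.59, adjusted p = 0.126) or line 2 (log2 -1.79, adjusted p = 0.0705), and FABP7 (log2 0.98, adjusted p = 0.0527) and VIM (log2 -0.73, adjusted p = 0.0627) without KO line 26. POU3F2 lost its call without WT line 1 (adjusted p = 0.329), WT line 2 (adjusted p = 0.289), KO line 26 (log2 -0.43, adjusted p = 0.226) or the 4 WT day 4 CT libraries (adjusted p = 0.0698) and with no filter, robust variances, median-ratio scaling or a pseudocount of 0.1 (adjusted p from 0.0565 to 0.104). When limma was fitted to the 4 libraries of 1 comparison alone, no KO difference of a marker passed on either day, with adjusted p of 0.0782 for MSI1 on day 4 and 0.19 to 0.219 for NES, VIM, FABP7, ZBTB16 and DACH1 in CT1.0 on day 8.

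**Figure D4:**
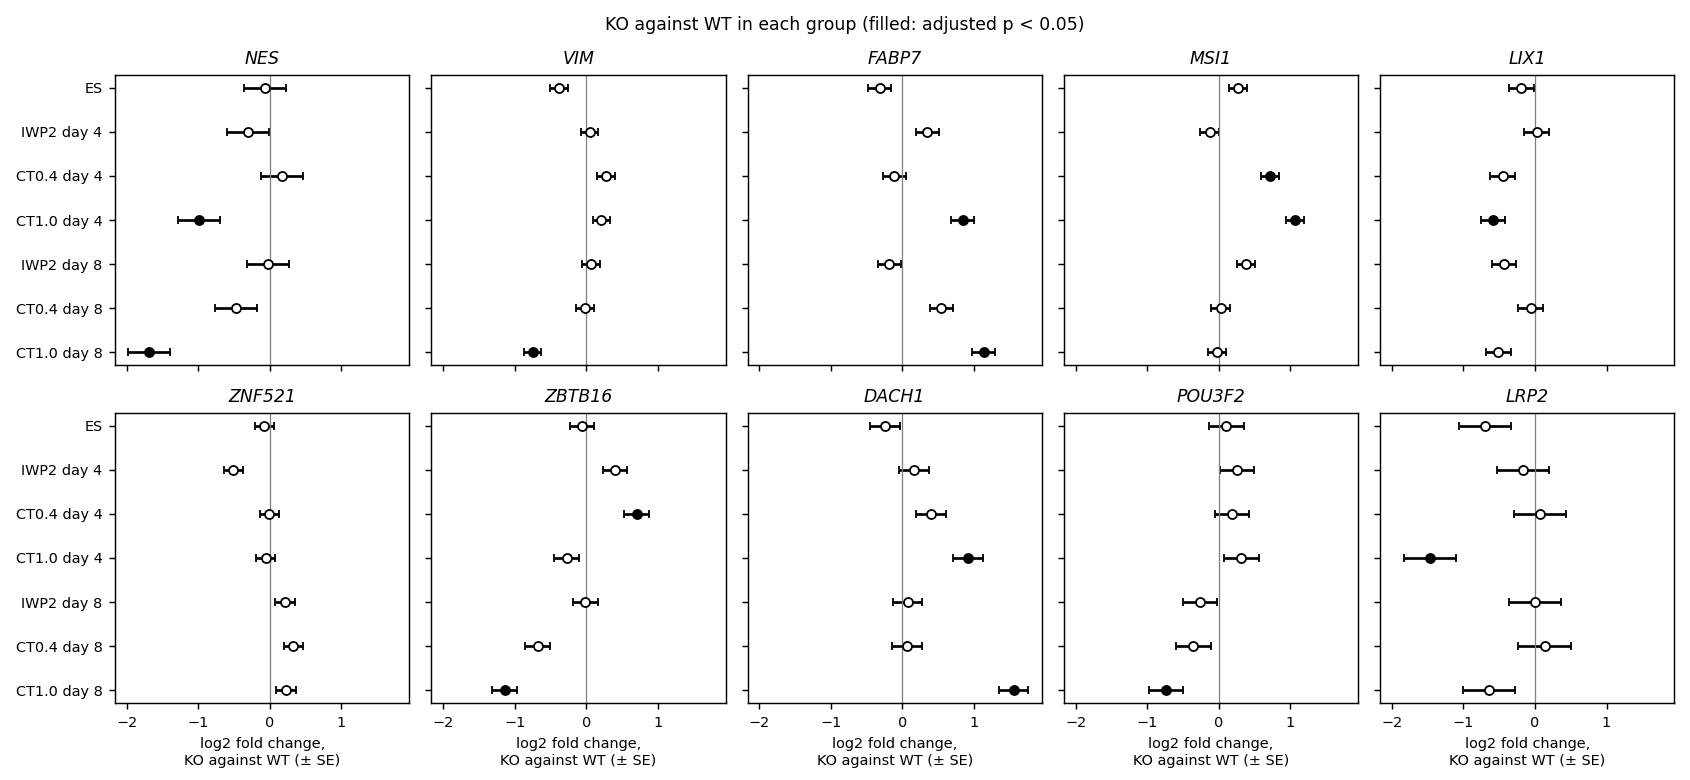
Difference between KO and WT for each marker (panels) in 7 groups (vertical axis), as log2 fold change with bars of 1 SE (horizontal axis); filled points have an adjusted p under 0.05. Filled points occur in CT1.0 on both days and, for MSI1 and ZBTB16, in CT0.4 on day 4.

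**Figure D5:**
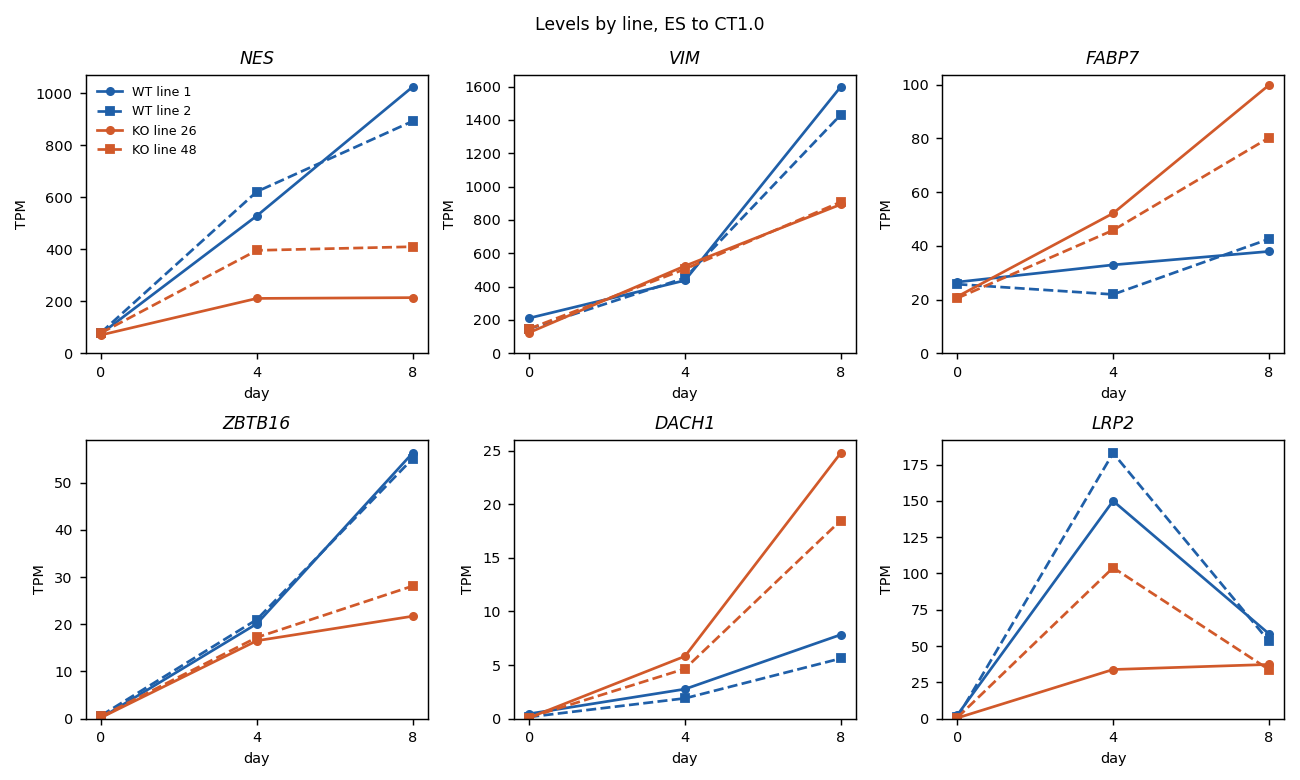
TPM (vertical axis) of 6 markers in each line from ES (day 0) to CT1.0 on days 4 and 8 (horizontal axis), WT blue and KO orange, with lines 1 and 26 solid and lines 2 and 48 dashed. NES and ZBTB16 end higher in both WT lines, FABP7 and DACH1 in both KO lines, and LRP2 peaks on day 4 in 3 of the 4 lines.

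Whether the KO difference itself depended on the label was tested by limma as the KO minus WT difference in CT1.0 less that in another label. Against IWP2 on day 8 it differed for 5 of 10 markers (3.22% of all genes): NES (log2 -1.66 ± 0.41, adjusted p = 0.0385), VIM (log2 -0.81 ± 0.17, adjusted p = 0.0188), ZBTB16 (log2 -1.13 ± 0.24, adjusted p = 0.0209), FABP7 (log2 1.32 ± 0.23, adjusted p = 0.0064) and DACH1 (log2 1.48 ± 0.29, adjusted p = 0.014). Against CT0.4 it differed for 2 (4.60%), VIM (log2 -0.73 ± 0.17, adjusted p = 0.0261) and DACH1 (log2 1.49 ± 0.29, adjusted p = 0.0115). NES did not pass against CT0.4 (log2 -1.21 ± 0.41, adjusted p = 0.106) but did without KO line 48 (log2 -1.55, adjusted p = 0.0102) and with a replicate block (adjusted p = 0.0135). Between CT0.4 and IWP2 0 of 10 differed (0.147%), with 2 markers and 1843 of 27912 genes at an unadjusted p under 0.05. Leaving out WT line 1 or WT line 2 ended all 7 calls, with adjusted p from 0.0662 (FABP7 without line 1) and 0.0624 (FABP7 without line 2) up to 0.396 (NES without line 1). Without KO line 26 the NES call against IWP2 was the only one kept, and without KO line 48 those of VIM (adjusted p = 0.113 against IWP2 and 0.135 against CT0.4), ZBTB16 (adjusted p = 0.0576) and DACH1 against IWP2 (adjusted p = 0.0581) ended. Against IWP2 the NES call also ended with median-ratio scaling (log2 -1.52, adjusted p = 0.0528), no filter (adjusted p = 0.0591), robust variances (adjusted p = 0.0635) or without the 4 WT day 4 CT libraries (adjusted p = 0.0591), and those of ZBTB16 (adjusted p = 0.211) and DACH1 (log2 1.60, adjusted p = 0.0554) with a pseudocount of 0.1. Against CT0.4 that of VIM ended with median-ratio scaling (log2 -0.58, adjusted p = 0.0672) and robust variances (adjusted p = 0.0588).

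Comparisons added after the values were seen asked the same on day 4 and between days. On day 4 the KO difference of MSI1 was larger in CT0.4 than in IWP2 (log2 0.85 ± 0.18, adjusted p = 0.028) and in CT1.0 than in IWP2 (log2 1.19 ± 0.18, adjusted p = 0.00128), in each case 1 of 10 markers (1.34% and 5.09% of all genes). Between CT1.0 and CT0.4 0 of 10 differed (0.297%), with 4 markers and 3066 of 27912 genes at an unadjusted p under 0.05. From day 4 to day 8 the KO difference of MSI1 (log2 -1.08 ± 0.18), VIM (log2 -0.96 ± 0.17) and ZBTB16 (log2 -0.87 ± 0.24) shifted downward in CT1.0, 3 of 10 markers (7.56%), and that of ZBTB16 in CT0.4 (log2 -1.39 ± 0.24, adjusted p = 0.012), 1 of 10 (0.838%). In IWP2 0 of 10 shifted (0.0537%), with 3 markers and 2030 of 27912 genes at an unadjusted p under 0.05. The median of all genes shifted by -0.29 in CT1.0, and with median-ratio scaling VIM (log2 -0.58, adjusted p = 0.0678) and ZBTB16 (log2 -0.51, adjusted p = 0.328) were not called there. Without WT line 1 the MSI1 values were 0.80 (adjusted p = 0.392), 1.11 (adjusted p = 0.116) and, between days, -0.90 (adjusted p = 0.194), and without WT line 2 they were 0.89 (adjusted p = 0.209), 1.28 (adjusted p = 0.0592) and -1.28 (adjusted p = 0.0529). The MSI1 call in CT0.4 also ended without KO line 26 (adjusted p = 0.0637), with median-ratio scaling (log2 0.65, adjusted p = 0.0906) and with robust variances (adjusted p = 0.0681), and VIM between days without WT line 1 (adjusted p = 0.07) or KO line 26 (adjusted p = 0.117). ZBTB16 between days lost both calls whichever line was left out, with adjusted p from 0.0577 (CT0.4 without WT line 1) to 0.262 (CT1.0 without KO line 26). A pseudocount of 0.1 also ended both (adjusted p = 0.177 in CT0.4 and 0.296 in CT1.0), and no filter (adjusted p = 0.0554) or robust variances (adjusted p = 0.0569) that in CT1.0.

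Averages over the 3 labels, with the line as the replicate, gave no marker call. On day 4 0 of 10 passed (0.856% of all genes), with MSI1 the nearest (log2 0.55 ± 0.10, adjusted p = 0.0513). There 3 markers and 4613 of 27912 genes had an unadjusted p under 0.05. On day 8 0 of 10 passed (0% of all genes), while 6 markers and 2572 of 27912 genes had an unadjusted p under 0.05. NES was at -0.73 ± 0.21 (adjusted p = 0.34) and FABP7 at 0.50 ± 0.10 (adjusted p = 0.181). ZBTB16 was at -0.61 ± 0.17 (adjusted p = 0.324) and DACH1 at 0.56 ± 0.17 (adjusted p = 0.345).

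The KO lines differed from each other in some markers throughout. Line 48 was above line 26 in 7 of 7 groups for NES and for LIX1 and below it in 7 of 7 for FABP7, a pattern of 7 groups on 1 side that 2.82% of all genes had in KO and 1.1% in WT. After ES the ratio of line 48 to line 26 ran from 1.15 to 1.92 in NES, 1.10 to 1.54 in LIX1 and 0.803 to 0.944 in FABP7. LRP2 reached 3.07 in CT1.0 on day 4. In WT line 2 was above line 1 in 5 of 7 groups for NES, 4 of 7 for LIX1 and 3 of 7 for FABP7.

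Other progenitor genes were followed from a list of 20, of which 19 were tested. On day 8 in CT1.0, 2 were higher in KO (4.34% of all genes were) and 10 lower (9.96%). The 3 of these named next were picked by size of change, and all 3 are among the lower. Their median was -0.50 where that of all genes was -0.02. HES5, a NOTCH target that holds progenitors undifferentiated, was 8.10 and 24.3 TPM in KO and 58.8 and 71.4 TPM in WT (log2 -2.12 ± 0.58, adjusted p = 0.022). PAX6, a regulator of forebrain and eye progenitors, was 6.53 and 19.4 TPM and 34.1 and 39.0 TPM (log2 -1.60 ± 0.34), and SOX21 was 23.9 and 42.0 TPM and 77.6 and 87.0 TPM (log2 -1.35 ± 0.26). SOX2, the pan-neural and stem cell factor, was 174 and 216 TPM in KO and 216 and 239 TPM in WT and was not called (log2 -0.23 ± 0.12). On day 4 in CT1.0 3 were higher (12.4% of all genes), among them SLC1A3 (log2 1.56 ± 0.32) and PTPRZ1 (log2 1.20 ± 0.16). There 4 were lower (2.49%), led by SOX3 (log2 -1.57 ± 0.26). In CT0.4 2 were higher on day 4 (3.67%) and 3 lower on day 8, where 0.416% of all genes were called in either direction. Under IWP2 0 of 19 were called on either day, against 0.043% of all genes on day 4 and 0.0609% on day 8.

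Relatives of the markers did not move as one with them. Of 17 paralogs 15 were tested. In KO CT1.0 on day 8, 1 was higher (4.34% of all genes) and 4 lower (9.96%), with a median of -0.50. FABP5, a fatty acid binding protein like FABP7, was lower where FABP7 was higher, at 46.6 and 81.2 TPM in KO and 136 and 140 TPM in WT (log2 -1.15 ± 0.25, adjusted p = 0.00575). INA, a neuronal intermediate filament gene like NES, was lower (log2 -1.02 ± 0.27). DACH2, like DACH1, was higher, at 3.23 and 2.25 TPM against 1.11 and 0.963 TPM (log2 0.86 ± 0.25), though on day 4 in CT1.0 it was lower (log2 -1.55 ± 0.25).

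Markers of other cell types moved in the same comparison, and their part in the results was not tested. Of all genes 4.34% were higher and 9.96% lower in KO CT1.0 on day 8, before median-ratio scaling. Of 8 neuronal markers 3 were lower in KO CT1.0 on day 8, TUBB3 (log2 -1.86 ± 0.32), STMN2 and DCX. The 8 summed to 278 to 450 TPM in KO and 727 to 903 TPM in WT. Most of that difference was TUBB3, at 97.3 and 239 TPM in KO and 606 and 514 TPM in WT. MAP2 was not called, at 138 and 127 TPM in KO and 151 and 112 TPM in WT. Of 6 surface ectoderm markers 3 were higher, led by KRT19 (log2 1.30 ± 0.20), with sums of 82.0 to 106 TPM against 48.4 to 58.3 TPM. Of 7 mesenchymal markers, 6 of them tested, 0 were called, with sums of 28.7 to 47.4 TPM against 14.1 to 17.6 TPM. Among them COL1A2, not called, was 36.0 and 14.3 TPM in KO and 4.09 and 5.16 TPM in WT. Neural crest markers summed to 100 to 108 TPM in KO and 153 to 156 TPM in WT, with 2 of 6 higher and 1 lower. Of 6 pluripotency markers 1 was called, lower by -0.22, where 14.3% of all genes were called in either direction. Their sums were 71.4 to 83.9 TPM in KO and 83.2 to 90.0 TPM in WT, and ES cells held 3507 to 3783 TPM. Astroglial markers summed to at most 7.10 TPM and endoderm markers to at most 2.69 TPM in these 4 libraries, with 0 called, and SOX17 and GATA4 were listed at 0 in all 4. On day 4 in CT1.0 the neuronal sums were 195 to 214 TPM in KO and 217 to 222 TPM in WT. There 0 were called, against 14.9% of all genes.

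As a description of pattern, the correlation of group means of log2(TPM + 1) was taken over the 14 groups. Groups of a genotype share line numbers, and the step from ES cells to day 4 enters each correlation. The genes most like each marker were CAMK2N1 and PCBP4 for NES (Pearson r 0.971 and 0.918), BMI1 for VIM (0.973), PIGZ for FABP7 (0.962), POMGNT1 for MSI1 (0.967), GREB1L for LIX1 (0.985), ZNF274 for ZNF521 (0.984), TMEM169 for ZBTB16 (0.968), ZNF302 for DACH1 (0.97), SPATA7 for POU3F2 (0.935) and NCAM1 for LRP2 (0.977). Among the markers themselves, over the 12 groups after ES, r was highest between FABP7 and DACH1 (0.718) and between MSI1 and DACH1 (0.647), and lowest between ZNF521 and POU3F2 (-0.815) and between FABP7 and LIX1 (-0.721). The order of levels differed by gene: NES was highest in WT CT1.0 on day 8 (959 TPM) and next in WT CT1.0 on day 4 (576 TPM), each clear of the group below it, while VIM was highest in WT and KO CT0.4 on day 8 (1651 and 1630 TPM), which overlapped. ZBTB16 was highest in WT IWP2, KO IWP2 and WT CT1.0 on day 8 (56.1, 55.7 and 55.7 TPM), with overlapping libraries, and LRP2 in WT CT1.0 on day 4 (166 TPM), clear of KO CT0.4 on day 8 (111 TPM).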

How the data were processed

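Poly(A) RNA was sequenced from 28 libraries of H9 cells in 14 groups of 2. The authors deposited TPM for 58219 genes, and all 28 columns matched a sample by name. CASAVA 1.7, Salmon 0.8.2 and hg38 are named in the submitters' processing notes, while the role of each tool and the gene annotation were not given in the sources used here. Both HiSeq2000 and X-ten instruments appear in the labels, with no statement of which library went on which, so a batch term could not be tested. TPM keeps no depth, so intervals from counting are absent.

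Genes with a TPM of at least 1 in 2 or more libraries were tested (27912). limma 3.58.1 (R 4.3.3, with the data.table package at version 1.17.8) was fitted to log2(TPM + 1) with 1 mean per group, an intensity trend and no covariate, on 14 residual and 2.76 prior degrees of freedom (6 residual for line means). P-values were adjusted by the Benjamini-Hochberg method separately in each of 39 comparisons. With 2 against 2 libraries an exact permutation test cannot go below 0.333 and was not run. The fit was tested on simulated data.

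Alternatives were a replicate block, no filter, a pseudocount of 0.1, median-ratio scaling, fitting the compared libraries alone and each line left out of all groups. Others were robust variances with no trend and a fit without the 4 CT libraries of WT on day 4. A further one kept the main test and also required a log2 fold change of at least 1 in either direction, as a cut on the estimate. KO differences between days, and between labels on day 4, were added after seeing the data.

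The 10 markers and the lists (other progenitor genes, paralogs, and neuronal, pluripotency, neural crest, mesenchymal, surface ectoderm, endoderm and astroglial markers) were chosen with earlier results of these data known. Every marker is named, with up to 3 called genes of largest change and 1 uncalled gene of highest TPM from each other list, and up to 2 genes most correlated with each marker. Gene positions are from GENCODE 29, matched by ID (LRP2 without its version).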

Additional observations from a re-analysis of the deposited data

Results flagged for a closer look

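The KO difference depended on label or day, by limma's test of the difference itself, in 13 cases (log2, adjusted p under 0.05). Between CT1.0 and IWP2 on day 8 these were NES at -1.66, FABP7 at 1.32, VIM at -0.813, ZBTB16 at -1.13 and DACH1 at 1.48. Between CT1.0 and CT0.4 on day 8 they were VIM at -0.73 and DACH1 at 1.49. On day 4 MSI1 differed by 0.845 between CT0.4 and IWP2 and by 1.19 between CT1.0 and IWP2. From day 4 to day 8 the shifts were -1.39 for ZBTB16 in CT0.4, and -0.958 for VIM, -0.868 for ZBTB16 and -1.08 for MSI1 in CT1.0. All 13 calls ended when at least 1 line was left out, and the 6 that use day 4 CT values rest on the WT libraries with fewer detected genes.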

How the results depend on the processing

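Of 390 marker and comparison pairs 175 were called, and 70 of these kept the call under every alternative run. No called pair changed sign. Calls ended for 91 when only the libraries compared were fitted. They ended for 57 when a log2 fold change of at least 1 in size was also required. Another 20 ended with median-ratio scaling, 17 with a pseudocount of 0.1, 14 with no filter, 11 with robust variances and 6 without the 4 WT day 4 CT libraries, with overlap between settings. Calls also ended with each line left out. Leaving a line out, or fitting only the libraries compared, leaves fewer residual degrees of freedom than the 14 of the main fit. How much of each loss goes with this was not tested. The counts of called markers for KO against WT were 8 on day 4 and 6 on day 8; they became 0 and 0 when only the libraries compared were fitted, 1 to 8 and 3 to 8 with a line left out, and 2 on day 4 with the fold change threshold. KO effects between labels on day 8 (7) became 0 with only those libraries and 0 to 4 with a line left out. Those on day 4 (2) became 1 with robust variances, 1 with the threshold and 0 to 3 with a line left out. Those between days (4) became 2 with a pseudocount of 0.1, 2 with median-ratio scaling, 1 with only those libraries, 2 with the threshold and 0 to 3 with a line left out. With only those libraries WT labels went from 20 to 7 on day 4 and from 19 to 7 on day 8, KO labels on day 8 from 16 to 4, WT day 8 against day 4 from 21 to 10 and KO day 8 against day 4 from 14 to 2; with the threshold they went to 10, 10, 9, 13 and 9. With a line left out WT labels gave 6 to 18 and 7 to 22, and WT day 8 against day 4 gave 10 to 21. Day 4 against ES kept 28 (WT) and 30 (KO) within 1.5 times. FABP7 in WT CT1.0 on day 4 against ES, not called, ran from -0.225 to 0.303 with a WT line left out. Line differences correlated over genes between groups with 0 of 21 r over 0.1 in WT (-0.0937 to 0.0783) and 8 of 21 in KO (-0.0572 to 0.204), so not every pair passed 0.1 and the numbers were not used as pairs. With the replicate block the counts for KO against WT were 9 and 7, KO effects gave 8, 3 and 6, and 1 call ended (ZNF521, WT CT1.0 against CT0.4 on day 4). The block was not run for line means, and the fit without the 4 WT libraries only where no comparison uses them. Unknown depth limits the precision of low genes.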
